A study of Mus musculus with 6 samples.

Results

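Semaphorins and plexins, a family of guidance ligands and their receptors, were followed in bulk RNA-seq of mouse primary somatosensory (S1) cortex with or without whisker stimulation (WS). The members were all genes named Sema3 to Sema7 or Plxna to Plxnd in the deposited table, 29 of 14824 listed genes, of which 20 encode semaphorins and 9 encode plexins. The family was chosen by the WS and NS levels of Sema6a, which had been noticed to be higher in WS in these same libraries. The Sema6a values are therefore given as a description without a test, and tests were made only on the other 28 members.

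All 6 libraries came from S1 cortex of WT mice of the C57B6 strain at postnatal day 21. The 3 WS libraries were from cortex collected 90 minutes after the last of the daily stimulation bouts, and the 3 non-stimulated (NS) libraries had no treatment. The study used male mice and took the unstimulated side of the barrel cortex as its NS control, but the labels do not say which NS and WS samples came from the same animal, so p-values measure the spread between these samples. The tissue held all cortical cell types together, so more cells of a type and more RNA per cell cannot be told apart.

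Semaphorins share an extracellular sema domain and act mainly through plexins, whose cytoplasmic part inactivates small GTPases of the Ras family and so changes the cytoskeleton of the receiving cell. Class 3 semaphorins are secreted and most of them need a neuropilin as co-receptor, classes 4, 5 and 6 are membrane proteins, and Sema7a is held by a lipid anchor. In the cortex they are known for steering axons and dendrites during development and for later roles at synapses, in myelinating cells and in blood vessels.

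The counts over all listed genes summed to between 15660395 and 17276168 per library. Counts were scaled to CPM, which puts all libraries on a common normalized size, and WS was compared with NS over 13747 genes that passed a filter on low counts. All 29 members passed it, with between 48 and 3300 counts per library. Markers of neurons, astrocytes, microglia, endothelial cells and the oligodendrocyte lineage were detected in every library. Over the 10 excitatory neuron markers the summed level was 7294 to 7720 CPM in NS and 6949 to 8237 in WS, and over the 10 inhibitory neuron markers 1449 to 1501 and 1507 to 1642. It was 4587 to 5100 and 4810 to 5935 CPM for 10 astrocyte markers, 515 to 539 and 545 to 565 for 10 microglia markers, and 477 to 540 and 509 to 593 for 15 endothelial markers. Over 12 striatal markers, which could show tissue beyond the cortex, it was 368, 498 and 510 CPM in NS and 373, 776 and 359 in WS, so WS replicate 2 stood apart. The median log2 fold changes of these lists were -0.016 for excitatory neurons, 0.13 for inhibitory neurons, 0.13 for astrocytes, 0.09 for microglia, 0.088 for endothelial cells and 0.18 for striatum. None of the genes in these lists or in the oligodendrocyte lists below had an adjusted p under 0.05, and at an unadjusted p under 0.05 the higher ones were Olig1, 1 of 10 precursor markers, Pecam1, 1 of 15 endothelial markers, and Slc32a1, 1 of 10 inhibitory neuron markers (edgeR, against 0.866% of all tested genes), and 0 were lower (against 0.327%).

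Levels of different genes were compared as CPM per kilobase of exon. The length was the union of a gene's annotated exons, which can exceed its longest transcript. For Sema4d the union was 7679 bases and the longest transcript 4482, while for Sema3g both were 4540. By the longest transcript Sema6a stayed number 7 of the semaphorins, but the places of other genes can differ. Sema7a, which signals through PlexinC1 and integrins, had the highest level, with 57.0 ± 7.82 CPM per kilobase in NS and 58.0 ± 1.65 in WS, where errors are the SD of 3 libraries. Sema6b followed with 31.9 ± 5.28 in NS and 34.1 ± 4.57 in WS. The lowest were Sema3b, with 0.854 ± 0.216 in NS, and Sema3d, with 1.09 ± 0.221. In CPM, Sema3b had 3.03, 4.12 and 5.09 in NS and 3.14, 4.64 and 4.48 in WS. Sema3d had 8.89, 11.4 and 7.70 in NS and 7.46, 9.53 and 10.99 in WS, and the groups overlapped in both genes. Among the plexins, Plxnd1, the receptor of Sema3E in vessels and some neurons, was highest with 21.1 ± 1.46 CPM per kilobase in NS, and Plxna1 was next with 15.2 ± 0.989. Plxna3 was lowest with 2.14 ± 0.122. Sema4d, with 13.1 ± 2.48, was next below Sema6b among the semaphorins. Sema6a was number 7 of the semaphorins over the 6 libraries, with 5.16 ± 0.450 CPM per kilobase in NS and 8.18 ± 1.59 in WS.

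The order of neighbouring genes was mostly within the spread of the libraries. Of 28 neighbouring pairs in the order, 24 had ranges over the 6 libraries that overlapped. The ranges were apart between Sema7a and Sema6b, between Sema6b and Plxnd1, between Plxnd1 and Plxna1, and between Plxna3 and Sema3g. Summed by class, the 7 secreted class 3 genes together reached 15.8 ± 0.784 CPM per kilobase in NS, below Sema7a alone, while the 6 class 4 genes reached 41.5 ± 3.56 and the 4 class 6 genes 48.0 ± 4.77. The 4 plexin A genes summed to 32.1 ± 1.82 in NS and 32.0 ± 0.730 in WS.

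**Figure D1:**
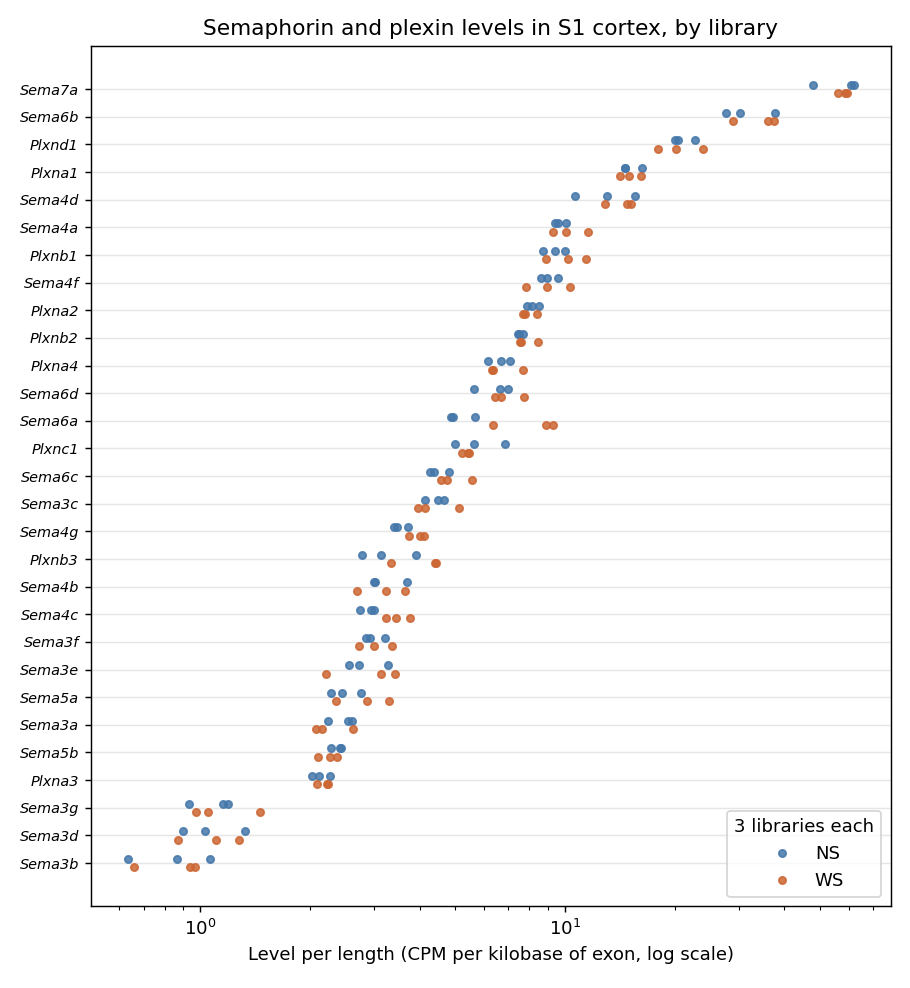
CPM per kilobase of exon on a log scale for the 29 genes, with 1 point per library (NS in blue, WS in orange), ordered by the mean over all 6 libraries. Sema7a lies highest and Sema3b lowest, and the WS points lie right of all NS points in Sema6a, Sema4c and Sema4g.

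Sema6a encodes a transmembrane semaphorin that binds PlexinA2 and PlexinA4 and can also act as a receptor itself (chromosome 18 of GRCm38, 47235598 to 47368870, minus strand). Its level was 42.7, 49.9 and 43.4 CPM in NS replicates 1, 2 and 3, and 55.8, 81.6 and 78.0 in WS replicates 1, 2 and 3. Every WS library was above every NS library, and WS replicate 1 lay closer to the NS libraries than to the other WS libraries. The log2 fold change, for which the family was chosen, was 0.66 with a standard error of 0.13. Without WS replicate 2, the library with the high striatal markers, it was 0.55, and without WS replicate 1 it was 0.82.

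Plxna2, 1 of its receptors (chromosome 1, 194618218 to 194816869, plus strand), had 135.5, 145.8 and 139.3 CPM in NS and 133.3, 131.7 and 144 in WS. The groups overlapped, and its log2 fold change was -0.04 (95% interval -0.20 to 0.12, edgeR quasi-likelihood adjusted p = 0.9998 by the Benjamini-Hochberg method over all tested genes). Plxna4, the other receptor (chromosome 6, 32144268 to 32588192, minus strand), had 86.8, 99.9 and 94.0 CPM in NS and 89.5, 88.8 and 108.6 in WS. These groups overlapped as well, with 0.032 as log2 fold change (95% interval -0.18 to 0.24, edgeR adjusted p = 0.9998). In the annotation Plxna4 overlaps the antisense genes Plxna4os1, Plxna4os2 and Plxna4os3, and Plxna2 overlaps predicted genes on its own strand, and how reads of such overlaps were assigned is not described.

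The ligand was also set against each receptor within a library. As a share of the Plxna2 CPM of the same library, Sema6a amounted to 31.5, 34.2 and 31.1% in NS and 41.9, 62.0 and 54.1% in WS. As a share of Plxna4 it amounted to 49.2, 49.9 and 46.1% in NS and 62.3, 91.9 and 71.8% in WS. The WS libraries lay above the NS libraries in both ratios, with a mean log2 difference of 0.69 for Plxna2 and 0.62 for Plxna4. These ratios hold the values that chose Sema6a and were not tested, and they are ratios of read counts that do not correct for transcript length. With 1 library left out in turn the difference lay between 0.56 and 0.84 for Plxna2 and between 0.47 and 0.75 for Plxna4.

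**Figure D2:**
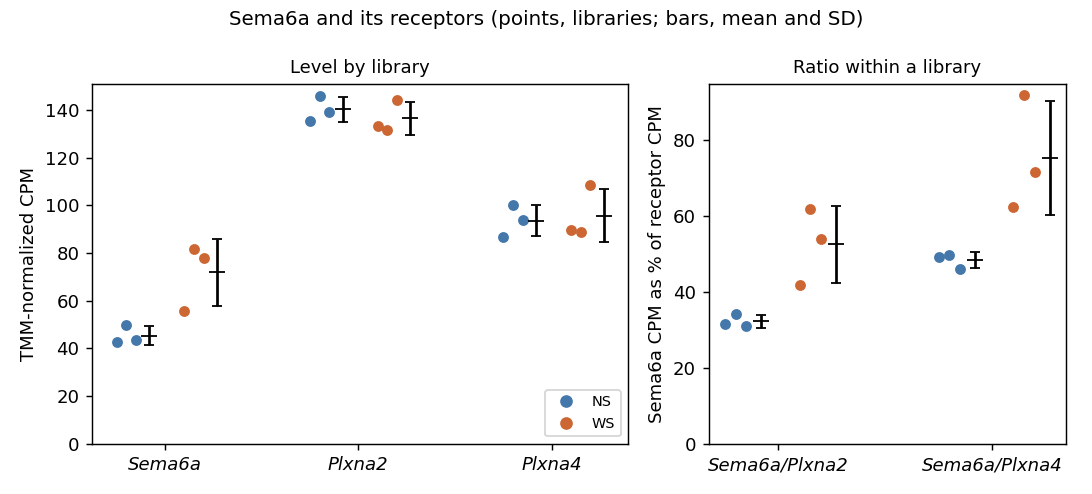
TMM-normalized CPM of Sema6a, Plxna2 and Plxna4 (left) and Sema6a as a percentage of each receptor's CPM in the same library (right), with points for the 3 NS and 3 WS libraries and bars for mean and SD. Sema6a reaches 55.8 to 81.6 CPM in WS against 42.7 to 49.9 in NS, while both receptors overlap between groups.

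The other class 6 members showed smaller differences. Sema6b, a ligand of PlexinA4, had 109.8, 119.9 and 150.1 CPM in NS and 142.8, 114.9 and 148.8 in WS. Sema6c had 25.9, 25.3 and 28.6 CPM in NS and 33.1, 27.2 and 28.2 in WS, and Sema6d, a ligand of PlexinA1, had 73.7, 70.3 and 59.6 and then 67.9, 70.5 and 81.5. The groups overlapped in all 3 of these genes, with log2 fold changes of 0.10, 0.15 and 0.11 and an edgeR adjusted p of 0.9998 for each. Over the 6 fits that each omitted 1 library they ranged from 0.0055 (without NS replicate 1) to 0.24 (without NS replicate 3) for Sema6b, from 0.059 (without WS replicate 1) to 0.21 for Sema6c, and from 0.025 (without NS replicate 3) to 0.17 for Sema6d. Summed without Sema6a, class 6 stood at 42.8 ± 4.85 CPM per kilobase in NS and 46.1 ± 5.16 in WS.

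None of the 28 members that were tested passed the thresholds, and Sema6a was not tested. At an edgeR adjusted p under 0.05 there were 0 of 28, against 0.0364% of all tested genes, and 0 of 28 had in addition an absolute log2 fold change above 1, against 0.0291%. At an unadjusted p under 0.05, 1 of the 28 was higher in WS (3.57%, against 0.866% of all tested genes) and 0 were lower (against 0.327%), in both directions together 1.19% of all tested genes. DESeq2 gave 0 of 28 after adjustment (against 0.0582%) and 1, Plxnb3, before it (3.57%, against 0.611% of the genes to which it gave a p). Blocking on the replicate number, edgeR gave 0 of 28 after adjustment (against 0.08%) and 2 before it (7.14%, against 1.77%). Upper quartile normalization gave 2 higher, Plxnb3 and Sema4c, against 0.909%. The edgeR count of higher members at an unadjusted p under 0.05 fell to 0 without NS replicate 3 (against 0.903% of all genes tested in that fit). It was 2 (Plxnb3 and Sema4d) when NS replicate 2 was left out, against 1.15% of all genes, and 2 (Plxnb3 and Sema5a) when WS replicate 1 was left out, against 2.27%. The median log2 fold change of the 28 was 0.031, against 0.0074 over all tested genes, and the median absolute log2 fold change was 0.070 against 0.0685. Of the 28, 18 had a log2 fold change above 0 (64.3%, against 53% of all tested genes), and the range went from -0.12 for Plxnc1 to 0.31 for Plxnb3. In 25 of the 28 the 95% interval stayed within 0.5 of 0 on the log2 scale, the exceptions being Plxnb3, Sema4c and Sema3g, whose upper bounds were 0.63, 0.50 and 0.52.

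The WS libraries lay above all NS libraries in 2 of the 28 members (7.14%, against 3.11% of all tested genes), and below all of them in 0 (against 3.16%). Sema4c, a transmembrane ligand of PlexinB2 (chromosome 1, 36548639 to 36558349, minus strand), had 13.7, 12.6 and 13.5 CPM in NS and 17.3, 14.8 and 15.9 in WS. Its log2 fold change was 0.27 with a standard error of 0.11, an unadjusted p of 0.028 and an edgeR adjusted p of 0.9998. In the annotation it overlaps D430040D24Rik on the other strand. Sema4g (chromosome 19, 44989101 to 45003397, plus strand) had 29.5, 30.1 and 32.2 CPM in NS and 35.6, 32.4 and 34.7 in WS, so that the highest NS and the lowest WS library lay close together. Its log2 fold change was 0.16 with a standard error of 0.09 and an edgeR adjusted p of 0.9998. With fewer libraries more genes separate overall. Leaving out NS replicate 2 gave 4 members with WS above NS, against 7.83% of all tested genes, and leaving out WS replicate 1 also gave 4, against 8.65%. The number below was 2 without NS replicate 1 (against 5.54%), 2 without WS replicate 2 (against 6.8%), 2 without WS replicate 3 (against 10.4%) and 1 without NS replicate 3 (against 7.27%).

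The promoter windows of Sema4c and Sema4g are shown because these were the members other than Sema6a whose groups did not overlap. They are RefSeq sequences of GRCm38.p6, 250 bases before to 50 after a start of the RefSeq table, written 5′ to 3′ on the strand of the gene. The RefSeq starts differ from the GENCODE gene ends given above, and that of Sema4g lies inside the GENCODE gene. Of the windows of Sema4c the one farther upstream is shown. Capitals mark matches on either strand to 3 motifs, the hypoxia response core ACGTG bound by HIF1, the cyclic AMP response element TGACGTCA and the AP-1 site TGANTCA bound by Fos and Jun.
Sema4c (chr1:36558332-36558631, minus strand): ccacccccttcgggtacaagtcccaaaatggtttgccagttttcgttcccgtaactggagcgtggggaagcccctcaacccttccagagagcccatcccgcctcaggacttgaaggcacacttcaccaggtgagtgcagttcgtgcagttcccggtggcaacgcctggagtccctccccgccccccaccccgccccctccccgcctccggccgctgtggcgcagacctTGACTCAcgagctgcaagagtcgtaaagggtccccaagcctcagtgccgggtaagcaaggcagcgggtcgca
Sema4g (chr19:44989094-44989393, plus strand): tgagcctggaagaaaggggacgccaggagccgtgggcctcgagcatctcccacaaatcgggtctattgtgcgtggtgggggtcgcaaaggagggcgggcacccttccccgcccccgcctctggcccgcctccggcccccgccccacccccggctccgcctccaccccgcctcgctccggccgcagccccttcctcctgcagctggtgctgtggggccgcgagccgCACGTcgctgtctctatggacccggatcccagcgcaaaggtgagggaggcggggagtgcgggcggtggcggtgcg

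The Sema4c window held an AP-1 match and the Sema4g window a match to the hypoxia response core. Windows were at hand for 24 of the 29 members, 35 windows in all. Of these, 8 (22.9%) held ACGTG, against 19.6% of all 32851 promoter windows, and 3 (8.57%) held TGANTCA, against 7.81%. TGACGTCA was in 0 of the 35, against 1.79% of all. A match of this kind is a description of the letters and does not show that a factor binds there.

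Among the remaining ligands, none of the secreted class 3 genes passed the test. Sema3a, which repels axons through neuropilin-1 and plexin A receptors, had 35.3, 36.1 and 31.2 CPM in NS and 30.0, 36.4 and 28.9 in WS, and the whole class ran from a log2 fold change of -0.11 for Sema3a to 0.09 for Sema3g, an endothelial semaphorin. Sema3e, the ligand of PlexinD1, had 25.3, 30.4 and 23.8 CPM in NS and 20.5, 29.1 and 31.7 in WS. In class 3, 3 of 7 genes had a log2 fold change above 0, and the groups overlapped in all 7. In class 4, 5 of 6 were above 0. In class 5, Sema5a had 42.6, 51.6 and 45.9 CPM in NS and 44.0, 53.4 and 61.5 in WS (log2 fold change of 0.18, standard error 0.12). That of Sema5a was 0.06 without WS replicate 3 and 0.30 without WS replicate 1. Sema5b had 16.1, 17.1 and 17.2 and then 14.9, 16.8 and 16.0. Sema7a had 158.2, 200.5 and 205.0 CPM in NS and 185.3, 195.6 and 193.4 in WS, so NS replicate 1 was its lowest library.

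Of the receptors, Plxna1 had 132.2, 147.6 and 132.0 CPM in NS and 146.0, 135.8 and 128.6 in WS, and Plxna3 had 16.0, 17.9 and 16.7 and then 16.5, 17.6 and 17.7. Plxnd1 had 166.1, 149.2 and 146.4 CPM in NS and 174.5, 147.1 and 131.1 in WS, so its highest and its lowest library were both WS. Plxnc1, the receptor of Sema7a, had the lowest log2 fold change of the family, -0.12 (standard error 0.11), with 57.3, 46.9 and 41.9 CPM in NS and 45.7, 45.3 and 43.7 in WS. Without NS replicate 1 it was 0.016. Plxnb1, the receptor of Sema4D, had 90.2, 95.7 and 83.4 CPM in NS and 97.6, 85.2 and 109.6 in WS. Plxnb2 had 57.9, 59.3 and 57.6 and then 58.6, 58.2 and 65.4. In each of these 6 plexins the groups overlapped and the edgeR adjusted p was 0.9998.

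**Figure D3:**
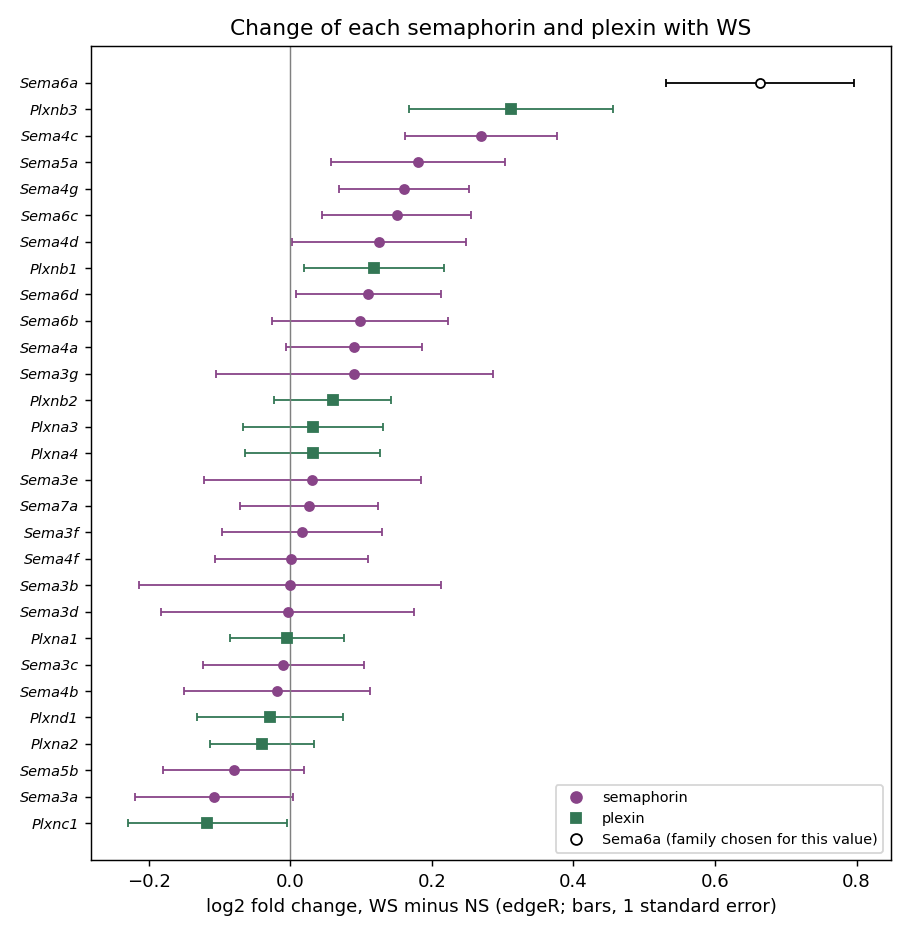
The edgeR log2 fold change of WS over NS for each of the 29 genes, with bars of 1 standard error (circles, semaphorins; squares, plexins; open circle, Sema6a, for which the family was chosen). Apart from Sema6a at 0.66 the values lie between -0.12 for Plxnc1 and 0.31 for Plxnb3.

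Plxnb3 had the highest log2 fold change of the 28, 0.31 with a standard error of 0.14 (edgeR adjusted p = 0.9998), and 0.21 to 0.46 with 1 library left out in turn. It had 18.0, 25.3 and 20.3 CPM in NS and 21.7, 28.6 and 28.8 in WS, and the groups overlapped between WS replicate 1 and NS replicate 2. Plxnb3 is known as a plexin of oligodendrocytes, the myelinating cells, and Sema4d and Sema6a are made by oligodendrocytes as well as other cells. Sema4d had 1297, 1919 and 1610 counts in NS and 1671, 1882 and 1799 in WS, which is 81.8 to 119.8 CPM in NS and 99.0 to 116.4 in WS. Its log2 fold change was 0.13, and it was -0.003 without NS replicate 1 and 0.27 without NS replicate 2. All 3 genes were lowest in NS replicate 1, as were 10 of all 29 members, these 3 included. The 3 genes also had their lowest WS value in WS replicate 1. Of those 10 members, the same held for Sema7a, Sema5a, Plxna3 and Sema3b.

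The summed level of the oligodendrocyte markers was also lowest in replicate 1 of each group. The sum over 11 genes (Mbp, Mog, Mag, Mobp, Cnp, Cldn11, Ermn, Opalin, Aspa, Ugt8a and Mal) was 6449, 9056 and 8997 CPM in NS and 7924, 10147 and 10047 in WS. Mbp was the largest part of it, with 3741.6 CPM in NS replicate 1 and 4732.3 in WS replicate 1. Every marker but Mag was lowest in replicate 1 of each group, and Mag had its lowest WS value in WS replicate 2. All 11 had a log2 fold change above 0, against 53% of all tested genes, with a median of 0.20. A log2 fold change above 0 was also found for 10 of 10 precursor, 10 of 10 astrocyte, 15 of 15 endothelial and 12 of 12 striatal markers, for 9 of 10 microglia and 8 of 10 inhibitory neuron markers, and for 3 of 10 excitatory neuron markers. Of the 11, 0 had an unadjusted p under 0.05 in edgeR, against 1.19% of all tested genes. The 10 precursor cell markers summed to 694, 869 and 785 CPM in NS and 784, 915 and 932 in WS, and their median log2 fold change was 0.13. Every marker of both lists had at least 201 counts in each library.

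Each gene was then divided by the oligodendrocyte sum of its own library, a comparison chosen after these values were seen. Plxnb3 came to 0.2796, 0.2798 and 0.226% of the sum in NS and 0.274, 0.282 and 0.287% in WS, a mean log2 difference of 0.11 where the fitted fold change was 0.31. The groups overlapped. Sema4d came to 1.27, 1.32 and 1.11% in NS and 1.25, 1.15 and 1.13% in WS, a difference of -0.07. Sema6a came to 0.663, 0.551 and 0.482% in NS and 0.704, 0.805 and 0.776% in WS, a difference of 0.44 on the log2 scale where the fitted fold change was 0.66. The groups did not overlap, as in the Sema6a values that chose the family, and this is given as a description. The part of the oligodendrocyte markers in the values of the 3 genes was not tested.

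**Figure D4:**
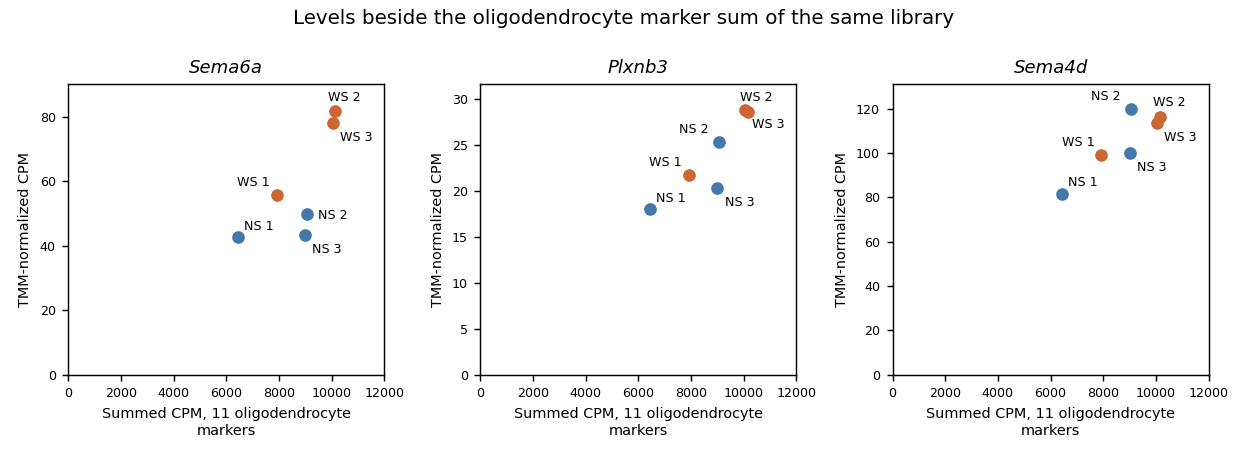
TMM-normalized CPM of Sema6a, Plxnb3 and Sema4d against the summed CPM of 11 oligodendrocyte markers in the same library, for 3 NS (blue) and 3 WS (orange) libraries. Replicate 1 of each group has the lowest sum and the lowest value of all 3 genes in its group, and the WS points of Sema6a lie above all NS points.

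None of the co-receptors and intracellular partners of the family passed the test after adjustment. Of 15 listed co-receptors and alternative receptors 14 were tested (Cd72 had 1 to 6 counts and was filtered out), and 0 of 14 had an edgeR adjusted p under 0.05. At an unadjusted p under 0.05, 0 were higher (against 0.866% of all tested genes) and 1 was lower (against 0.327%), namely Met, a receptor tyrosine kinase that associates with plexin B receptors. Met had 18.5, 21.3 and 16.9 CPM in NS and 14.4, 14.5 and 17.3 in WS, with overlapping groups and -0.30 as log2 fold change, standard error 0.12. The count of 1 in either direction became 0 without NS replicate 1 (against 0.808% of all genes in that fit) and without WS replicate 2 (against 1.48%). It became 2 without NS replicate 2 (against 1.52%) and without WS replicate 1 (against 3.09%), and was 0 in DESeq2 with the replicate block (against 0.4%). The neuropilins, which most class 3 semaphorins need, had log2 fold changes of 0.032 for Nrp1 and 0.085 for Nrp2, with 31.9, 36.2 and 29.01 CPM of Nrp1 in NS and 30.1, 33.3 and 35.9 in WS. The highest value of the list was 0.25 for Kdr, a VEGF receptor. With 1 library left out Kdr ranged from 0.14 (without WS replicate 3) to 0.34. Erbb2, another kinase partner of plexin B receptors, had 3.03, 2.81 and 2.92 CPM in NS and 2.67, 2.66 and 2.53 in WS, all below NS. Its log2 fold change was -0.16 (standard error 0.19).

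All 35 listed effectors were tested, and 0 had an edgeR p under 0.05, adjusted or not, with 18 of 35 above 0 and a median log2 fold change of 0.0043. The edgeR share over all tested genes was 1.19% before adjustment. DESeq2 gave 0 of 35 before adjustment, against 0.611% of all genes. The groups did not overlap in 2 of the 35, against 6.27% of all tested genes in either direction. Limk1, which phosphorylates cofilin, had 75.8, 90.2 and 87.5 CPM in NS and 91.8, 90.6 and 94.0 in WS, and Pak1, which activates Limk1, had 659, 621 and 677 in NS and 604, 596 and 601 in WS. Their log2 fold changes were 0.12 and -0.12, with standard errors of 0.08 and 0.07. With 1 library left out, that of Limk1 ranged from 0.052 (without NS replicate 1) to 0.17, and that of Pak1 from -0.16 to -0.093. The range of the list went from -0.15 for Farp2 to 0.22 for Mical1, an oxidase that takes actin filaments apart downstream of plexin A receptors. Over the fits that each omitted 1 library, Farp2 ranged from -0.26 to -0.052 and Mical1 from 0.15 to 0.31.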

How the data were processed

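Reads left after the authors' removal of rRNA and poor-quality sequence were aligned with HISAT2, and the submitters' processing notes name mm10. The counting tool and its strand setting are not given in the sources used here. Per gene, the authors deposited an estimated count averaged across the 6 libraries together with the SD. The authors also deposited 1 score per library, a z-score made by subtracting that mean and dividing by that SD. Counts were computed back as mean plus z-score times SD and rounded to whole numbers. In the 13418 genes whose rounding left under 0.1 count of uncertainty, 88.5% of values were whole within that uncertainty, against 4.53% by chance. The design had assumed counts or FPKM. Further columns hold the authors' own fold changes and p-values, and a second table holds such values for some genes, and none of these were used. The column of WS replicate 3 has an added letter in its name and was assigned on the ground that it enters the deposited WS mean. 0 columns belonged to no sample.

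WS was compared with NS by edgeR 4.0.16 (TMM, filterByExpr, quasi-likelihood test, Benjamini-Hochberg adjustment over 13747 genes) in R 4.3.3, without a block. The code was tested on simulated counts. DESeq2 1.42.0, other normalizations and filters, the replicate block and each library left out were alternatives. Summaries used Python 3.11.15. The edgeR standard errors are the absolute log2 fold change divided by the square root of the quasi-likelihood F statistic. The intervals were built from them. That of Sema6a was made in the same way and is not used as a test. Intervals and SDs cover only these libraries, and genes with few counts carry more counting error. Positions and exon lengths came from GENCODE M21 on GRCm38, with 29 of 29 members matched. The members and gene lists were chosen with earlier results of these data known. Values are given in every library for Sema6a and its receptors, for members with an unadjusted p under 0.05 or groups that do not overlap, and for those with the highest and lowest levels, as 3 highest and 2 lowest of each kind per length. Library values of other members, and the comparison with oligodendrocyte markers, were added after the values were seen. One marker of the oligodendrocyte list is not reported here and was left out of its sums.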

Additional observations from a re-analysis of the deposited data

How the results depend on the processing

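Depth was similar in all libraries, and Sema3b, the member with the fewest counts, had 48 to 82 per library, so small changes in it could not be resolved. The paper took samples as qualified at an RNA integrity number above 2 and gives no value by sample. The part of RNA quality in these values was not tested. Sema6a was not tested. Of the other 28 members, none had an adjusted p under 0.05 under any alternative. Their lowest value was 0.884 (edgeR's quasi-likelihood test or DESeq2, Benjamini-Hochberg adjustment). The log2 fold change of Sema6a was between 0.55 and 0.82 in the fits, and 0.44 relative to the oligodendrocyte markers. The replicate numbers of NS and WS are shared in the labels without a statement of pairing. Deviations of same-numbered libraries from their group means correlated with Pearson's r of 0.34, 0.23 and 0.12 across genes. Each library correlated best with its own number. Once genes averaging under 10 counts were left out, on a log2(CPM + 1) scale, the last value was 0.094. This was under the threshold of 0.1 set for a pairing, so the pairing was not taken as given. The values 0.12 and 0.094 lie close together, and the main test would ignore a pairing if there is one. With the replicate block, 2 of the 28 members (Plxnb3 and Sema4c) had an unadjusted p under 0.05, against 1.77% of all tested genes, the Sema6a log2 fold change was 0.65, and Plxna2 and Plxna4 had -0.04 and 0.028. With upper quartile normalization that count was also 2, and with DESeq2 and the block, added after seeing the data, 0 co-receptors had an unadjusted p under 0.05, against 0.4% of all tested genes. With 1 library left out in turn, the count of members higher at an unadjusted p under 0.05 ranged from 0 to 2, the count with WS above all NS libraries from 2 to 4, the count below from 0 to 2, and the count of co-receptors from 0 to 2. The cause was not tested. Some members changed sign, among them Plxnc1 and Sema4d. With 1 library left out, log2 fold changes ranged from -0.054 to 0.05 for Plxna1, -0.0045 to 0.077 for Plxna3, -0.07 to 0.081 for Plxna4, -0.21 to 0.016 for Plxnc1 and -0.15 to 0.063 for Plxnd1. They ranged from -0.17 to 0.19 for Sema3b, -0.13 to 0.063 for Sema3c, -0.14 to 0.17 for Sema3d, -0.1 to 0.2 for Sema3e, -0.064 to 0.085 for Sema3f and -0.11 to 0.2 for Sema3g. They ranged from -0.001 to 0.16 for Sema4a, -0.12 to 0.084 for Sema4b, -0.003 to 0.27 for Sema4d, -0.11 to 0.093 for Sema4f and -0.083 to 0.093 for Sema7a. Sema3b was at 0.0027 with upper quartile normalization, 0.0088 with the block and 0.01 with DESeq2 and the block. Sema4f was at -0.00016 with RLE size factors, -0.0052 without a factor, -0.00011 with DESeq2, -0.0055 with the block and -0.0078 with DESeq2 and the block. The other members kept their sign with 1 library left out, though Plxna2 ranged from -0.082 to -0.011 and Plxnb1 from 0.026 to 0.2. In the same fits Plxnb2 ranged from 0.0036 to 0.086, Sema3a from -0.22 to -0.044 and Sema5b from -0.13 to -0.035. Relative to the oligodendrocyte markers, Sema4d was at -0.067.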
